A study of Mus musculus with 4 samples.

Results

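The 9 genes described here, Siglech, Tcf4, Spib, Runx2, Ly6d, Klk1, Cd300c, Pacsin1 and Lair1, are transcribed in mouse plasmacytoid dendritic cells. They were selected by symbol from the 55450 gene rows of the deposited count files, all 9 were found, and all 9 passed the filter on low counts. The cells were CD11c+ cells of mesenteric lymph nodes of wild-type C57BL/6J mice, enriched with magnetic beads, with 2 nodes pooled per sample. The cells of a pool were shared out to a pair of wells, which received an Ffar2 agonist at 10 µM or water, and were cultured for 6 h in medium with serum. There were 2 agonist libraries and 2 control libraries, and the numbers 2 and 3 in their titles mark the pool, called pool 2 and pool 3 below. Which chemical served as the agonist is not given in the sources used here. It was asked which transcripts of these cells an agonist of Ffar2, a receptor for short-chain fatty acids, changed.

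Plasmacytoid dendritic cells recognise viral nucleic acids in endosomes and are known for releasing large amounts of type I interferon. They arise from the same marrow progenitors as conventional dendritic cells, under the E protein TCF4, and carry less CD11c on their surface than conventional dendritic cells do. In lymph nodes they are a minority population that enters from the blood. Mouse plasmacytoid dendritic cells share several transcripts with B cells, among them Spib, Ly6d and Tcf4, and share surface receptors such as Cd300c and Lair1 with other leukocytes.

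Reads assigned to genes numbered 49509736 and 59902172 in the agonist libraries and 43238375 and 52417584 in the control libraries. The targeted receptor Ffar2 had 89 and 116 reads in the agonist libraries and 176 and 202 in the control libraries. In CPM (a gene's reads scaled by library size) these were 1.71 and 2.05 against 4.04 and 3.87. The fitted log2 fold change of Ffar2, -1.07, did not pass the test used below (edgeR adjusted p = 0.9999, and 0.9998 with the pools as blocks). Itgax, which encodes CD11c, had 178 and 95.5 CPM in the agonist wells of pools 2 and 3, and 189 and 105 CPM in the control wells. Xist had 21194 and 17776 reads in the agonist and control libraries of pool 2 and 0 in both pool 3 libraries, while the Y-linked gene Ddx3y had 21461 and 18752 reads in the agonist and control libraries of pool 3 but 0 in either library of pool 2. The pools therefore differ by sex-linked transcripts, and a difference between them cannot be told apart from one of sex. All 14 markers taken for plasmacytoid dendritic cells were read and tested, and 5 of the 14 are among the 9 genes. Transcripts of other cells were present as well, with summed levels given further on, so the libraries are a mixture. In such a mixture, fewer cells of a type and less RNA per cell cannot be told apart.

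The members spanned a wide range of levels. By the average log2 CPM used in the test, Siglech stood above 96.9% of the 18297 tested genes and Pacsin1, at the other end, above 53.2%. On a scale that accounts for exon length and library size (RPKM), Ly6d was the highest with a mean over the 4 libraries of 138, followed by Siglech at 90.4, Spib at 46.6, Klk1 at 19.3 and Cd300c at 12.5. Lair1 followed with a mean RPKM of 6.19, Tcf4 with 4.59, Runx2 with 2.84 and Pacsin1 with 1.12. Each pair of neighbours in this order overlapped in its range over the libraries. Ly6d exceeded Siglech in all 4 libraries, and Tcf4 exceeded Runx2, and Runx2 exceeded Pacsin1, in all 4, whereas Klk1 exceeded Cd300c in 2 of 4. The exon length counted for Tcf4, 27382 bases over all annotated isoforms, lowers its value on this scale.

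**Figure D1:**
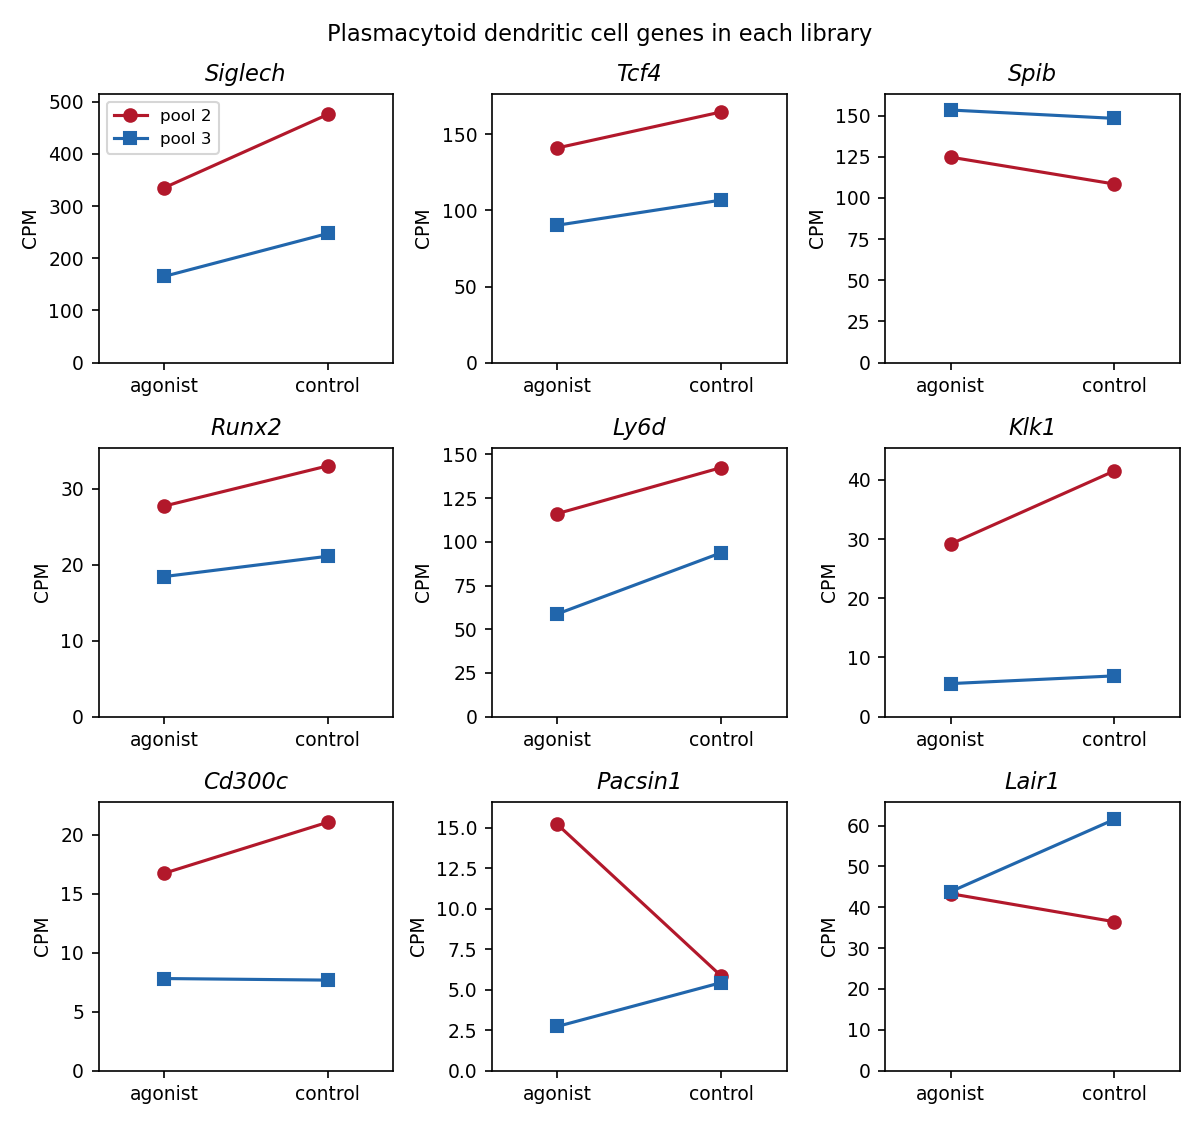
Level of each of the 9 genes in CPM (vertical axes, starting at 0) in the agonist and control libraries, with a line joining the wells of one pool (circles, pool 2; squares, pool 3). Siglech, Tcf4, Runx2, Ly6d and Klk1 lie lower in the agonist well of both pools, and the pools stand apart for most genes, by the widest margin for Klk1.

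Agonist and control wells differed in 0 of 18297 tested genes by edgeR's quasi-likelihood test at an adjusted p under 0.05 (0.0%; 289 genes, 1.58%, had an unadjusted p under 0.05), so 0 of the 9 members passed. Taking the pools as blocks, edgeR called 1 gene (0.00547%), and 0 members. Standard errors (SE) of the members ran from 0.29 (Spib) to 0.99 (Klk1) without the block. With the block they ran from 0.23 (Siglech) to 0.57 (Pacsin1), because the unblocked fit counts the difference between the pools as spread. DESeq2 called 7 genes without the block and 6 with it, limma-voom called 0, and 0 members were called by any of these. The members' log2 fold changes had a median of -0.23, against -0.05 for all tested genes, with medians of -0.25 in pool 2 and -0.30 in pool 3 (all tested genes -0.09 and -0.0048). Of the 9 members, 5 were lower in the agonist well of both pools (27.8% of all tested genes were), 1 was higher in both (21.0%) and 3 had opposite directions (50.6%). For none of the 9 did both agonist libraries lie below both control libraries (13.5% of all tested genes did) or above both (11.4%; 25.0% in either direction).

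Siglech encodes a sialic acid binding lectin that serves as a surface marker of mouse plasmacytoid dendritic cells and signals through the adaptor DAP12. The gene (ENSMUSG00000051504.18, chromosome 7, 55768178 to 55778925, plus strand, GRCm38) had 17414 and 9370 reads in the agonist libraries of pools 2 and 3 and 20699 and 12923 in the control libraries. Its level was 335 and 165 CPM in the agonist wells, against 475 and 247 CPM in the control wells. Within each pool the agonist well was the lower one, at 0.704 times the control well in pool 2 and 0.668 times in pool 3, while the groups overlapped because pool 2 exceeded pool 3 in either condition. On the log2 scale the fitted difference was -0.53 (SE 0.46, 95% interval -1.64 to 0.58, edgeR adjusted p = 0.9999). The blocked value was -0.54 (SE 0.23, 95% interval -1.06 to -0.03), with an edgeR unadjusted p of 0.0417 and an edgeR adjusted p of 0.9998. An unadjusted p under 0.05 was reached in the blocked fit by 3.53% of tested genes in either direction and by 336 genes, 1.84%, that were lower, and Siglech was the 1 member among them. With single libraries left out the unblocked value lay between -1.09, without agonist replicate 2, and 0.014, without control replicate 2.

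The windows around the annotated starts of 3 members are printed here because these genes had the highest mean CPM of the 9 (Siglech), the single difference between the pools that passed (Klk1) and a direction opposite to Siglech in both comparisons (Spib). Each holds 250 bases before and 50 after the start, from RefSeq on GRCm38.p6, 5′ to 3′ on the gene's strand, at chr7:55767934-55768233 (plus strand) for Siglech, chr7:44225110-44225409 (plus strand) for Klk1 and chr7:44532022-44532321 (minus strand) for Spib. Capitals mark matches, on either strand, of 3 short motifs, CACCTG of E proteins, GAGGAA of the ETS factors to which Spi-B belongs and TGTGGT of RUNX factors.
Siglech: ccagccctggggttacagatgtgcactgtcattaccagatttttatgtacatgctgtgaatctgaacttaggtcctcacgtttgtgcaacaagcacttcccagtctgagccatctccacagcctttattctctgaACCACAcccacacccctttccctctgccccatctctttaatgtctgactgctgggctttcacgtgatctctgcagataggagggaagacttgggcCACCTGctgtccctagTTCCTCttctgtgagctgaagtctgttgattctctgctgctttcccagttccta
Klk1: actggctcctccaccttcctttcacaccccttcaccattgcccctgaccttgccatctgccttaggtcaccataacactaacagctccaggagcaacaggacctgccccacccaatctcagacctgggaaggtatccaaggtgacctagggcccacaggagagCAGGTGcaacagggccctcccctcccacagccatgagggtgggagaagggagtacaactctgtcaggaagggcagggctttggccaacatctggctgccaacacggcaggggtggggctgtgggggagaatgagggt
Spib: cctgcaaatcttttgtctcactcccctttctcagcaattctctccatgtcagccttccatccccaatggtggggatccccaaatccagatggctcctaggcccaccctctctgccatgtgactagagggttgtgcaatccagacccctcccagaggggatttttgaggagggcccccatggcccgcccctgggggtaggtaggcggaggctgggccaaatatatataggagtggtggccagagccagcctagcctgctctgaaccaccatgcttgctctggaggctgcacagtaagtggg

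The Siglech window held 1 match of each motif, that of Klk1 held 1 CACCTG match, and that of Spib held none of the 3 motifs. Such matches are common, with CACCTG or its reverse complement in 20.2% of 32851 windows of this length, GAGGAA in 28.3% and TGTGGT in 16.8%. Among the 7 members whose window was searched, 3 held CACCTG (Siglech, Klk1 and Cd300c), 2 held GAGGAA (Siglech and Lair1) and 4 held TGTGGT (Siglech, Runx2, Cd300c and Pacsin1). The windows of Cd300c (chr11:114960458-114960757, minus strand) and Pacsin1 (chr17:27684989-27685288, plus strand) lie at starts inside the genes as counted. Those genes span 114956116 to 114969157 and 27655509 to 27711482, so their outer starts were not searched. A match describes the letters and says nothing of binding. No window was searched for Tcf4 or Ly6d. Windows on chromosome 18, where Tcf4 lies, were left out of the search among the members.

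Other surface molecules among the members varied in direction. Ly6d, a GPI-anchored protein found on B cell progenitors and on a class of plasmacytoid dendritic cells of lymphoid descent, had 116 and 58.8 CPM in the agonist wells of pools 2 and 3, against 142 and 93.7 CPM in the control wells. It was lower in the agonist well of both pools, with log2 ratios of -0.29 and -0.67, and the fit gave -0.43 (SE 0.41, 95% interval -1.43 to 0.56, edgeR adjusted p = 0.9999). Cd300c, an immunoglobulin-like receptor of the CD300 family, had 16.7 and 7.81 CPM in the agonist wells and 21.1 and 7.68 CPM in the control wells. Its pool 3 wells were nearly level, with a log2 ratio of 0.02, against -0.33 in pool 2 (log2 fold change -0.23, SE 0.60, 95% interval -1.67 to 1.22, edgeR adjusted p = 0.9999). Lair1, an inhibitory receptor for collagens, had 43.3 and 43.8 CPM in the agonist wells and 36.5 and 61.5 CPM in the control wells. The agonist values of Lair1 lay between the control values, higher than control in pool 2 (log2 ratio 0.25) and lower in pool 3 (-0.49), and the fitted value was -0.17 (SE 0.34, 95% interval -0.99 to 0.66, edgeR adjusted p = 0.9999).

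The transcription factors had small differences within the pools. Tcf4, the E protein on which the identity of plasmacytoid dendritic cells depends, had 141 and 90.3 CPM in the agonist wells of pools 2 and 3, against 165 and 107 CPM in the control wells. The log2 ratios of Tcf4 were -0.22 and -0.24, nearly equal in the pools, and the fitted value was -0.23 (SE 0.36, 95% interval -1.09 to 0.63, edgeR adjusted p = 0.9999). Runx2, a runt-domain factor best known from bone, which in mice also supports the exit of plasmacytoid dendritic cells from the marrow, had 27.7 and 18.4 CPM in the agonist wells and 33.0 and 21.1 CPM in the control wells. It too was lower in the agonist well of both pools (log2 ratios -0.25 and -0.20; log2 fold change -0.23, SE 0.38, 95% interval -1.14 to 0.68, edgeR adjusted p = 0.9999). Runx2os2, an antisense transcript within the gene on the opposite strand, had 975 and 773 reads in the agonist and 706 and 565 in the control libraries. The library kit does not mark strand, so reads from the primary transcript of either gene cannot be assigned with certainty. Runx2os2 shares 0 exon bases with Runx2. The antisense gene Runx2os1 shares 519 (5.87% of the exon bases of Runx2) and had 51 and 31 reads in the agonist and 32 and 16 in the control libraries. Supt3, a protein-coding gene that overlaps Runx2 on the opposite strand, shares 0 exon bases with it. Reads of Supt3 numbered 1729 and 1498 in the agonist and 1437 and 1983 in the control libraries. Spib, an ETS factor of plasmacytoid dendritic cells and B cells, had 125 and 153 CPM in the agonist wells and 108 and 148 CPM in the control wells. It was the only member higher in the agonist well of both pools, by 0.20 and 0.05 on the log2 scale, and the fitted value was 0.12 (SE 0.29, 95% interval -0.60 to 0.83, edgeR adjusted p = 0.9999).

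Klk1 and Pacsin1 were the most variable members. Klk1 encodes tissue kallikrein, a secreted serine protease, and had 1517 and 317 reads in the agonist libraries of pools 2 and 3 and 1808 and 360 in the control libraries. That is 29.2 and 5.59 CPM in the agonist wells against 41.5 and 6.89 CPM in the control wells, lower with the agonist in both pools with a wider gap between the pools than between the wells. Without the block, the interval around its fitted log2 value of -0.48 was the widest of the members (SE 0.99, 95% interval -2.87 to 1.91, edgeR adjusted p = 0.9999). With the block the value was -0.41 (SE 0.29, 95% interval -1.07 to 0.26). The unblocked value was 1.33 without control replicate 2 and -2.08 without agonist replicate 2. Klk1 belongs to a cluster of near-identical mouse kallikrein genes, and reads aligned to several places were not counted. Of its 12 paralogs here, Klk1b27 had 183 and 18 reads in the agonist libraries and 165 and 63 in the control libraries, Klk1b11 had 0 to 8 reads, and 10 had 3 or fewer in every library. Pacsin1, an F-BAR adaptor of membrane trafficking that in plasmacytoid dendritic cells takes part in the interferon response to Toll-like receptor 9, had 15.2 and 2.73 CPM in the agonist wells, against 5.86 and 5.44 CPM in the control wells. The agonist wells of Pacsin1 held both its highest and its lowest value, with a log2 ratio of 1.37 in pool 2 and -0.98 in pool 3. The fit gave 0.67 (SE 0.76, 95% interval -1.17 to 2.50, edgeR adjusted p = 0.9999), against 0.21 in the blocked fit and -1.01 without agonist replicate 2.

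**Figure D2:**
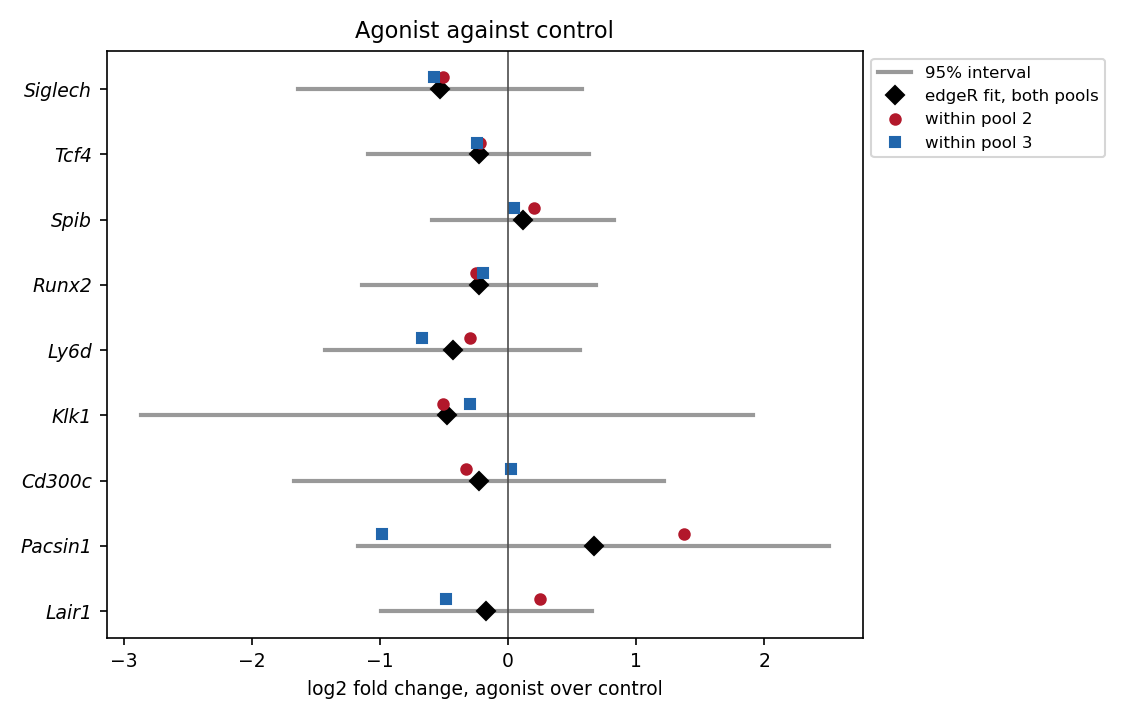
Log2 fold change of agonist over control (horizontal axis) for each member, from the edgeR fit without a block (diamonds, with 95% intervals as bars) and within each pool (circles, pool 2; squares, pool 3). Every interval includes 0, from the narrowest for Spib (-0.60 to 0.83) to the widest for Klk1 (-2.87 to 1.91), and Pacsin1, Lair1 and Cd300c have opposite signs in the pools. Without a block, the difference between the pools counts toward these intervals.

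Other genes of these cells were described from 4 lists chosen for their surface and product genes, developmental regulators, nucleic acid sensing, and the signalling partners of the members. Of 15 surface and product genes, 0 passed the test, and the median log2 fold change was -0.30. In both pools 9 were lower (27.8% of all tested genes were) and 2 higher (21.0%). Ccr9, the chemokine receptor that guides cells to the gut, had 113 and 107 CPM in the agonist wells of pools 2 and 3 and 122 and 188 CPM in the control wells (log2 fold change -0.49, SE 0.31). Lag3, a receptor for MHC class II, had 4.62 and 0.688 CPM in the agonist wells, against 1.33 and 0.670 CPM in the control wells (log2 fold change 1.40, SE 0.95). The difference of Lag3 stood in pool 2 alone, with a log2 ratio of 0.04 in pool 3. Ly6c2, a surface antigen of plasmacytoid dendritic cells and of monocytes, had 92.2 and 35.5 CPM in the agonist wells and 124 and 57.6 CPM in the control wells (log2 fold change -0.51, SE 0.55).

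The regulators had no common direction. Of 16 genes, 0 passed the test, with a median of 0.04. In both pools 3 were lower (27.8% of all tested genes were) and 4 higher (21.0%), and 9 were opposite (50.6%). Irf8, a factor of dendritic cell development, had 505 and 264 CPM in the agonist wells of pools 2 and 3 and 126 and 280 CPM in the control wells, so that its log2 fold change of 0.92 (SE 0.48) stood in pool 2 (2.00) and not in pool 3 (-0.09). Flt3, the growth factor receptor of dendritic cell progenitors, had 275 and 310 CPM in the agonist wells and 147 and 279 CPM in the control wells (log2 fold change 0.46, SE 0.36). Batf3, which conventional dendritic cells of the cDC1 class require, stood at a log2 fold change of 0.30 (SE 0.43). Control replicate 2 was the lowest library for each of these 3 genes. Among the partners and opponents of Tcf4, the E protein Tcf12 had 48.0 and 17.6 CPM in the agonist wells and 49.3 and 19.4 CPM in the control wells, and the inhibitor Id2, abundant in conventional dendritic cells, had 1713 and 2255 CPM in the agonist wells and 1978 and 2085 CPM in the control wells. The Spi relatives of Spib, Spi1 and Spic, were higher in the agonist well of both pools, with log2 fold changes of 0.33 (SE 0.29) and 0.43 (SE 0.50) that did not pass.

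Few or no reads were assigned to the 5 type I interferon genes of the list. Ifna1, Ifna2, Ifna4 and Ifna5 had 0 reads in each of the 4 libraries, which at a floor of 3 counts allows up to 0.0529 to 0.0689 CPM per library, counting error only. The Ifna genes are near-identical copies, and reads aligned to several places were not counted. Ifnb1 had 7 and 0 reads in the agonist libraries of pools 2 and 3 and 4 and 2 in the control libraries. The receptors that sense nucleic acids were read, Tlr7 at 26.2 and 14.7 CPM in the agonist wells and 22.5 and 20.8 CPM in the control wells, and Tlr9 at 2.96 and 3.79 CPM in the agonist wells and 4.36 and 2.81 CPM in the control wells. Of the 21 genes of sensing and interferon, 16 were tested and 0 passed, with a median log2 fold change of -0.08. In both pools 3 of them were lower (27.8% of all tested genes were) and 4 higher (21.0%). For the adaptor gene Traf6 the log2 fold change was 0.61 (SE 0.38), and the interferon receptor genes Ifnar2 and Ifnar1 had 0.75 (SE 0.56) and 0.31 (SE 0.27). Irf7, the factor that drives interferon transcription, went opposite ways, with 90.8 and 90.3 CPM in the agonist wells of pools 2 and 3 and 161 and 51.6 CPM in the control wells.

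Among the signalling partners of the receptors, Tyrobp, which encodes the DAP12 adaptor used by Siglec-H, had 392 and 235 CPM in the agonist wells of pools 2 and 3 and 455 and 231 CPM in the control wells. Of 15 adaptor, phosphatase and ligand genes, 13 were tested and 0 passed, and their median log2 fold change was -0.16. In both pools 4 of them were lower (27.8% of all tested genes were) and 0 higher (21.0%). For the kinase genes Csk and Btk the fit gave log2 fold changes of -0.43 (SE 0.49) and -0.20 (SE 0.28), and C1qc, which encodes a complement chain that Lair1 can bind, had -0.29 (SE 0.42). Among the relatives of Siglech, Siglecg, a lectin of B cells and dendritic cells, had 341 and 256 CPM in the agonist wells and 414 and 245 CPM in the control wells. The relatives of Cd300c included Cd300a at 112 and 70.3 CPM in the agonist wells and 144 and 68.7 CPM in the control wells, and Cd300c2 at 17.4 and 12.2 CPM in the agonist wells and 23.2 and 12.4 CPM in the control wells.

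Markers of T and B cells were summed in the same libraries. The summed level of the 10 T cell markers was 654 and 303 CPM in the agonist wells of pools 2 and 3 and 922 and 462 CPM in the control wells. All 10 were lower with the agonist in both pools (27.8% of all tested genes were), and 0 passed. For the 10 B cell markers the sum was 743 and 375 CPM in the agonist wells and 823 and 451 CPM in the control wells, with 8 of 10 lower in both pools (0 passed). The 9 members summed to 849 and 546 CPM in the agonist wells and 1029 and 699 CPM in the control wells, at ratios of 0.825 in pool 2 and 0.781 in pool 3. For comparison, the ratio of agonist to control was 0.709 and 0.656 for the T cell sum, 0.903 and 0.832 for the B cell sum, 0.971 and 1.23 for the 6 cDC1 markers and 1.01 and 0.952 for the 6 cDC2 markers. No marker of these B cell, T cell, cDC1 or cDC2 lists was at 0 in any library. The part of such other cells in the members' values was not tested.

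The members differed more between the pools than between the conditions. In an edgeR fit with group as a covariate, pool 3 differed from pool 2 in 72 of 18297 genes (0.394% of those tested, 0.29% lower in pool 3), and 1 of the 9 members was called, Klk1, lower in pool 3. These p-values rest on repeat wells of 1 pool per arm and cover the spread between wells, not that between pools or mice. The members' median log2 difference was -0.79, against -0.0061 for all tested genes. For 7 members both libraries of pool 3 lay below both of pool 2 (25.2% of all tested genes did), and for Spib and Lair1 both lay above (24.0%), so that the pools did not overlap for any of the 9 (49.2%).

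Klk1 averaged 6.24 ± 0.921 CPM in pool 3 and 35.4 ± 8.73 CPM in pool 2 (SD, n = 2 wells each), 5.67-fold lower in pool 3. The log2 difference was -2.49 (SE 0.31, 95% interval -3.19 to -1.79, edgeR adjusted p = 0.0249) and was nearly the same in agonist wells (-2.38) and control wells (-2.58). The call of Klk1 was lost with total counts only (edgeR adjusted p = 0.168) and with a minimum count of 50 (0.0652), and without agonist replicate 3 (0.404) or control replicate 3 (0.513), while the log2 difference stayed between -2.72 and -2.22 in these and all other alternatives run. Siglech averaged 206 ± 58.1 CPM in pool 3 and 405 ± 99.4 CPM in pool 2, a log2 difference of -0.98 (SE 0.23, edgeR adjusted p = 0.103). It did not pass here, but passed with no filter (adjusted p = 0.0382), in DESeq2 (0.00806) and without agonist replicate 2 (0.0304). Cd300c had a log2 difference of -1.28 (SE 0.32, edgeR adjusted p = 0.119) and passed in DESeq2 (0.0279) and without agonist replicate 2 (0.0196). Tcf4, at -0.63 (SE 0.23, edgeR adjusted p = 0.266), passed without agonist replicate 2 alone (0.0423).

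Ly6d had a log2 difference of -0.79 (SE 0.25) and Runx2 one of -0.62 (SE 0.28), neither passing. Pacsin1 had -1.29 (SE 0.57), which came from the agonist wells, with -2.46 there and -0.11 in the control wells. Spib, at 0.37 (SE 0.23), and Lair1, at 0.39 (SE 0.29), were higher in both wells of pool 3 without passing. The value of Lair1 stood mainly in the control wells, with 0.75 there and 0.02 in the agonist wells. The ratio of Spib reads to Siglech reads in a library needs no library scaling. It restates the differences of these 2 genes from the same reads and is no separate check. There were 37.3 and 92.9 reads of Spib per 100 reads of Siglech in the agonist libraries of pools 2 and 3, and 22.8 and 60.0 in the control libraries. The matching numbers for Ly6d, 34.7 and 35.6 in the agonist libraries and 30.0 and 37.9 in the control libraries, varied little.

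**Figure D3:**
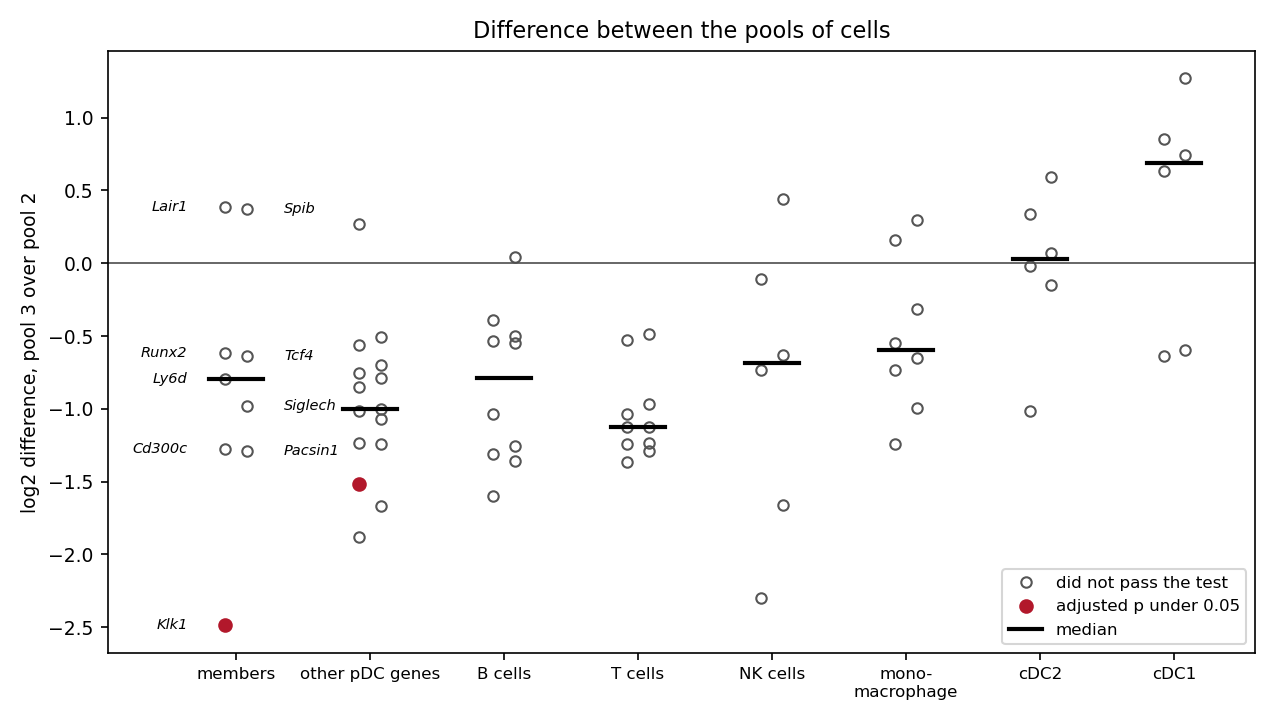
Log2 difference of pool 3 over pool 2 (vertical axis) for the tested genes of 8 lists, with horizontal bars for list medians and filled points for genes past the adjusted threshold of 0.05. Members have a median of -0.79 with Klk1 lowest and Spib and Lair1 above 0, B and T cell markers lie at medians of -0.79 and -1.12, and cDC1 markers at 0.69.

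The other surface and product genes went the same way between the pools, with a median of -1.0. Of the 15, 14 were lower in both wells of pool 3 (25.2% of all tested genes were). Cd8a of this list is a T cell marker too. One of the 15 passed, Plac8, at -1.52 (SE 0.24, edgeR adjusted p = 0.0426), a gene of myeloid and plasmacytoid cells named after its value was seen. The exception was Ccr9, with a log2 difference of 0.27 (SE 0.26). The development regulators had a median of 0.21, with 9 of 16 higher in both wells of pool 3 (24.0% of all tested genes were). In the Siglec family Cd33 was called lower in pool 3 (-2.15, SE 0.30, edgeR adjusted p = 0.0299), and among the signalling partners the B cell linker Blnk was (-1.74, SE 0.25, edgeR adjusted p = 0.0325), both also named after their values were seen. These 3 calls were lost with total counts only and with a minimum count of 50 (edgeR adjusted p from 0.0652 to 0.175) and without agonist replicate 3 or control replicate 3 (0.409 to 0.550), and that of Plac8 also with DESeq2 size factors (0.0505). The summed level in pool 3 over that in pool 2 was 0.663 for the members, 0.527 for B cell markers, 0.486 for T cell markers, 0.669 for monocyte and macrophage markers, 1.66 for cDC1 markers and 0.953 for cDC2 markers. The part of these cell types in the members' difference was not tested.

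Likeness to Siglech was measured as the root mean square distance between levels in log2 CPM, each gene centred on its own mean over the 4 libraries. Among non-members with an average log2 CPM of at least 2, the nearest were Ctsw (distance 0.031), Ldb1 (0.033), Lamb3 (0.036), Atp8b4 (0.039) and Rnf145 (0.046). With only 4 libraries that share 2 pools, many genes take such a pattern by the pool alone, and the distance is a description. Of 10000 genes ranked in this way, including the other members, Ly6d came at place 68, Tcf4 at 350, Runx2 at 418 and Cd300c at 523, while Pacsin1, Lair1, Spib and Klk1 came at 6340 to 7288. The distance also grows with the size of a difference. Klk1 ordered the 4 libraries as Siglech did, with a larger log2 difference between the pools (-2.49 against -0.98). The markers Ly6c2 and Klra17 came at 88 and 93, and the B cell gene Cd79a at 115.

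**Figure D4:**
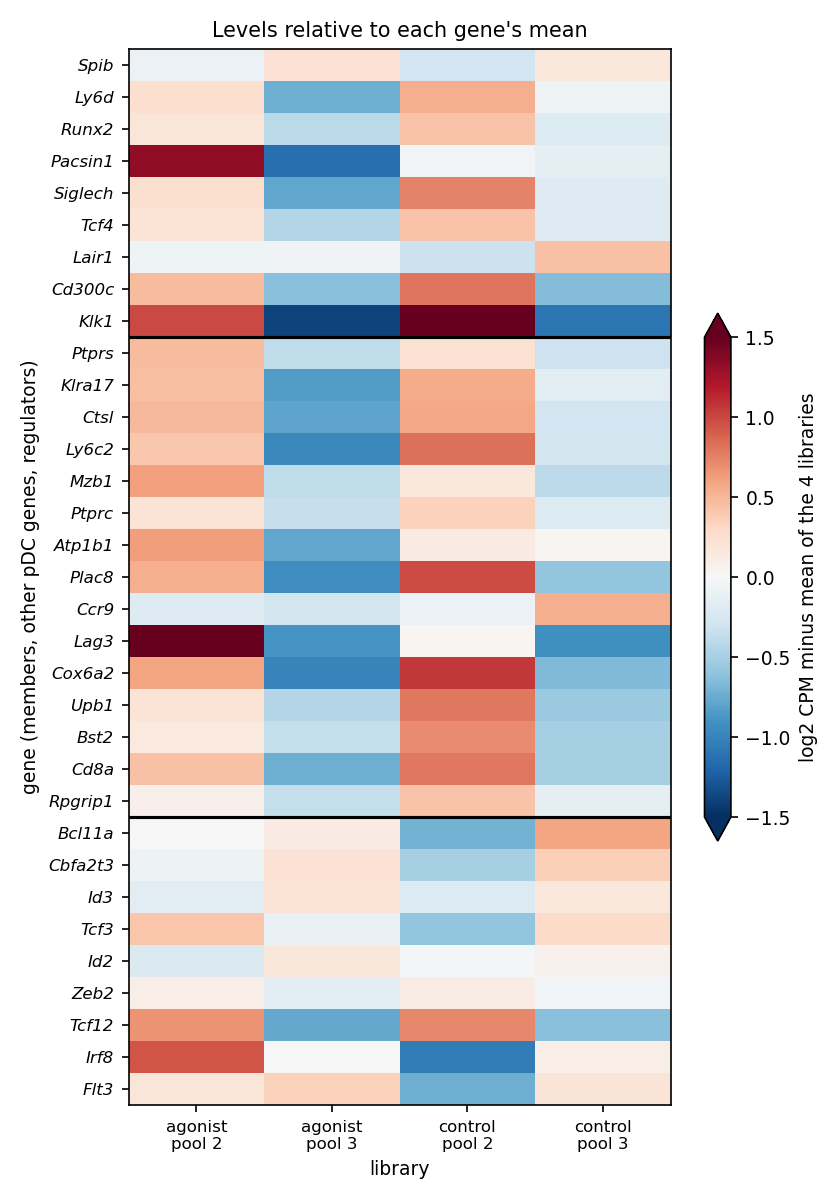
Log2 CPM of each gene minus its mean over the 4 libraries (colour, red above and blue below the mean, drawn up to 1.5 in either direction) for the 9 members (top block), 15 other genes of plasmacytoid dendritic cells (middle block) and 9 regulators of their development (bottom block). Siglech, Tcf4, Runx2, Ly6d, Cd300c and Klk1 and most product genes are above their mean in both pool 2 columns and below it in both pool 3 columns, while Spib, Lair1 and Ccr9 do not follow and Irf8 is lowest in the control library of pool 2.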

How the data were processed

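The authors deposited raw read counts per gene, 1 file per library. STAR 2.7, HTSeq 0.11.1 and the build GRCm38 (mm10) are named in the submitters' processing notes, without their roles; the strand setting is not given in the sources used here. Per the labels' protocols, libraries were made with SMART-seq v4 from RNA of average integrity number 9.0. Identifiers of all 55450 rows matched GENCODE M21, which gave coordinates and exon lengths. Reads that named no gene (29.2% to 33.2% of a library) were left out; those aligned to several places are among them.

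Counts were analysed with edgeR 4.0.16, limma 3.58.1 and DESeq2 1.42.0 in R 4.3.3, and Python 3.11.15. The default expression filter (minimum count 10) left 18297 genes. TMM factors were 0.947 to 1.05. Agonist and control libraries were compared without a block in the quasi-likelihood test (two-sided), and pool 3 with pool 2 with group as a covariate, adjusted over all tested genes (Benjamini-Hochberg, threshold 0.05). SEs were derived from the log2 fold change and F statistic. Log2 values of single libraries used a prior count of 2. Libraries are described as repeat wells of pools. The labels do not say whether pools came from separate animals. Xist had 0 reads in both pool 3 libraries and Ddx3y 0 in both pool 2 libraries, so the pools did not share an animal. The unblocked p-values of the agonist comparison measure the spread between these samples, which includes the difference between the pools.

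The protocol states that each sample was divided between both wells, so the numbers pair the libraries; same-numbered libraries deviated together from their group means (r = 0.288 across 18297 genes). Members and lists were chosen with earlier results of these data known. From each of the 4 lists of related genes, up to 4 genes with the smallest unadjusted p in the agonist comparison could be named and 3 are, beside relatives of members; interferon genes, Tlr7, Tlr9, Irf7 and Tyrobp were named outside this rule, with values known; likeness to Siglech followed a fixed distance rule. Alternatives were the block, other scalings, filters and tools, and leaving out each library.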

Additional observations from a re-analysis of the deposited data

How the results depend on the processing

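In the agonist comparison, 0 members passed under any alternative run, and the 8 alternatives other than leaving out a library kept the direction of all 9 members. The number of genes called over all genes was 0 in the unblocked edgeR fit, 1 with the pool as a block (replicate block), 9 with no filter, 7 in DESeq2 and 6 in DESeq2 with the replicate block. The replicate block changed no other call. The members' median log2 fold change (-0.23) was -0.16 with a minimum count of 50 and -0.20 in DESeq2 with the block. Leaving out 1 library makes the pools unequal between the groups, so such values contain the difference between the pools. They gave 0 to 2 genes, a members' median of -0.84 to 0.11, and log2 fold changes of -1.09 to 0.014 for Siglech, -0.55 to 0.11 for Tcf4, -0.093 to 0.43 for Spib, -0.52 to 0.13 for Runx2, -0.97 to -0.028 for Ly6d, -2.08 to 1.33 for Klk1, -0.84 to 0.67 for Cd300c, -1.01 to 1.42 for Pacsin1 and -0.50 to 0.33 for Lair1. Listed genes whose direction turned had -1.32 to 0.15 (Ly6c2), -0.50 to 2.20 (Lag3), -0.11 to 0.95 (Batf3), -0.29 to 1.35 (Ifnar2), -0.31 to 0.0096 (Btk), -0.94 to 0.24 (Csk) and -0.63 to 0.30 (C1qc). The other listed genes kept their direction, at -0.77 to -0.072 (Ccr9), 0.41 to 1.69 (Irf8), 0.068 to 1.07 (Flt3), 0.21 to 1.23 (Traf6) and 0.10 to 0.51 (Ifnar1).

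Between the pools, all 9 members kept their direction under every alternative run. The count over all genes was 72, and 5 with total counts only, 600 with no filter, 8 with a minimum count of 50 and 706 in DESeq2, with 0, 2, 0 and 3 members called in that order. Klk1 lost its call with total counts only (log2 difference -2.57) and a minimum count of 50 (-2.54), Siglech passed with no filter (-0.97) and in DESeq2 (-0.96), and Cd300c passed in DESeq2 (-1.26). Leaving out 1 library, with the group term dropped, gave 1 to 1575 genes, 0 to 4 members, a median of -1.15 to -0.52, and -2.72 to -2.22 for Klk1, -1.30 to -0.69 for Siglech, -0.77 to -0.51 for Tcf4, -1.42 to -1.11 for Cd300c, -1.15 to -0.46 for Ly6d, -0.73 to -0.48 for Runx2, -1.98 to -0.51 for Pacsin1, 0.28 to 0.49 for Spib and 0.12 to 0.63 for Lair1. The cause was not tested. With 2 libraries a group, the intervals of the unblocked agonist comparison are wide, and they also hold the difference between the pools.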
